A study of Mus musculus with 8 samples.

Results

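Genes of the hepatic stellate cell and of the extracellular matrix were examined in liver RNA of C57BL/6J mice that had received an adeno-associated virus. The list held 39 genes, named as a set of stellate cell markers, collagens, other matrix proteins, matrix enzymes and profibrotic signals. All 39 were among the 24972 genes listed in the deposited table, and 38 reached 10 normalized counts in at least 4 of 8 libraries and were tested among 13301 genes. Timp1, the gene of a metalloproteinase inhibitor, was the member that did not.

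Mice 10 weeks old were injected into a vein with AAV8-ALB-Null, a control virus, or with AAV8-ALB-ATF3, and liver RNA was taken 8 weeks later, at an age of 18 weeks. There were 4 libraries in each group, called Null 1 to 4 and ATF3 1 to 4, whereas 8 mice per group are named in the design text. The study asked which genes of the liver are regulated by ATF3, a transcription factor that cells induce under stress. Both groups carried a virus, so there was no group of mice without one. ALB in both vector names was taken as the albumin promoter, which is active in hepatocytes, so stellate cells were not the cells the vector was built for. The sex of the mice, and whether a library holds RNA of 1 mouse or of several, is not in the labels. The p-values therefore stand for the spread among the libraries at hand, which may be technical.

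Stellate cells lie between hepatocytes and the sinusoidal endothelium and store retinyl esters. In injured liver they become contractile cells that resemble myofibroblasts, make fibrillar collagen and respond to platelet-derived growth factor and to TGF-beta. Portal fibroblasts, vascular smooth muscle and pericytes share many of these genes. In bulk RNA, fewer cells of a type and less RNA per cell cannot be told apart.

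Atf3 held 20.3 to 24.5 normalized counts in Null and 5611 to 7053 in ATF3 libraries, as the labels say. Column sums were between 23.9 M and 28.4 M normalized counts, and the read depth behind them is unknown. Null 3 stood apart in the matrix genes: it was the highest Null library for 26 of the 39 genes, and Null 4 was the lowest for 26. Within ATF3, ATF3 4 was the highest for 22 and ATF3 1 the lowest for 18. Vascular smooth muscle markers followed the same libraries. All 10 tested smooth muscle markers were highest in Null 3 among the Null libraries, at a median of 3.51 times the median of the other three Null libraries, and 7 of 10 were highest in ATF3 4 among the ATF3 libraries. Myh11, the smooth muscle myosin heavy chain gene, held 444, 227, 1061 and 86.4 (Null 1 to 4) against 139.6, 184, 225 and 447 (ATF3 1 to 4). The summed level of the 11 markers was 4667 to 6493 in Null and 4980.3 to 5834 in ATF3. Actg2 was at 0 in Null 4, and Myocd was at 0 in at least 1 library. Of the 9 tested portal fibroblast and mesothelial markers, 6 were highest in Null 3 among the Null libraries. Their sum over 15 genes was 1281 to 1869 in Null and 3045 to 3450.4 in ATF3, and Gas6, the gene of a ligand of TAM receptors, made up most of the ATF3 sum (2204 to 2538). Gli1, Clec3b and Wt1 of that list were at 0 in at least 1 library. The part of smooth muscle or portal tissue in the results below was not tested.

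Few matrix and stellate genes separated the groups. Of the 38 genes tested with limma, 0 rose and 1, Rgs5, fell at an adjusted p under 0.05. Among all 13301 genes tested, 11.4% rose and 9.82% fell, 21.2% in all, against 2.63% of the members. At an unadjusted p under 0.05 there were 8 members, 5 lower and 3 higher, which is 21.1% against 33.9% of all genes. The groups did not overlap for 3 members, or 7.89%, against 26.3% of all genes tested. These 3 were Rgs5 and Pdgfrb, lower in all ATF3 libraries, and Col4a1, higher in all of them; among all genes, 12.6% were so lower and 13.7% so higher. Estimates were below 0 for 24 members and above 0 for 14. Their median was -0.12 on the log2 scale, against 0.01 for all genes. Without Null 3 the median of the members was 0.01 and 19 were below 0, so the downward balance was absent without that library. It was stronger without Null 4 (31 below 0, median -0.23), Null 2 (28, median -0.24) or ATF3 4 (28, median -0.19).

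The precision differed between members. The 95% confidence interval lay within a 2-fold change in either direction, that is within 1 on the log2 scale, for 31 of 38 members. It lay within a 1.5-fold change for 14. For 7 members the interval reached a 2-fold change: Col1a1, Dpt, Fbln1, Mmp12, Loxl1, Acta2 and Ctgf. Among the Null libraries the values were widest for Acta2, where the highest Null library was 13.0 times the lowest, and narrowest for Col4a1, where it was 1.14 times the lowest. The median SE was 0.20 for the members and 0.15 for all genes tested.

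**Figure D1:**
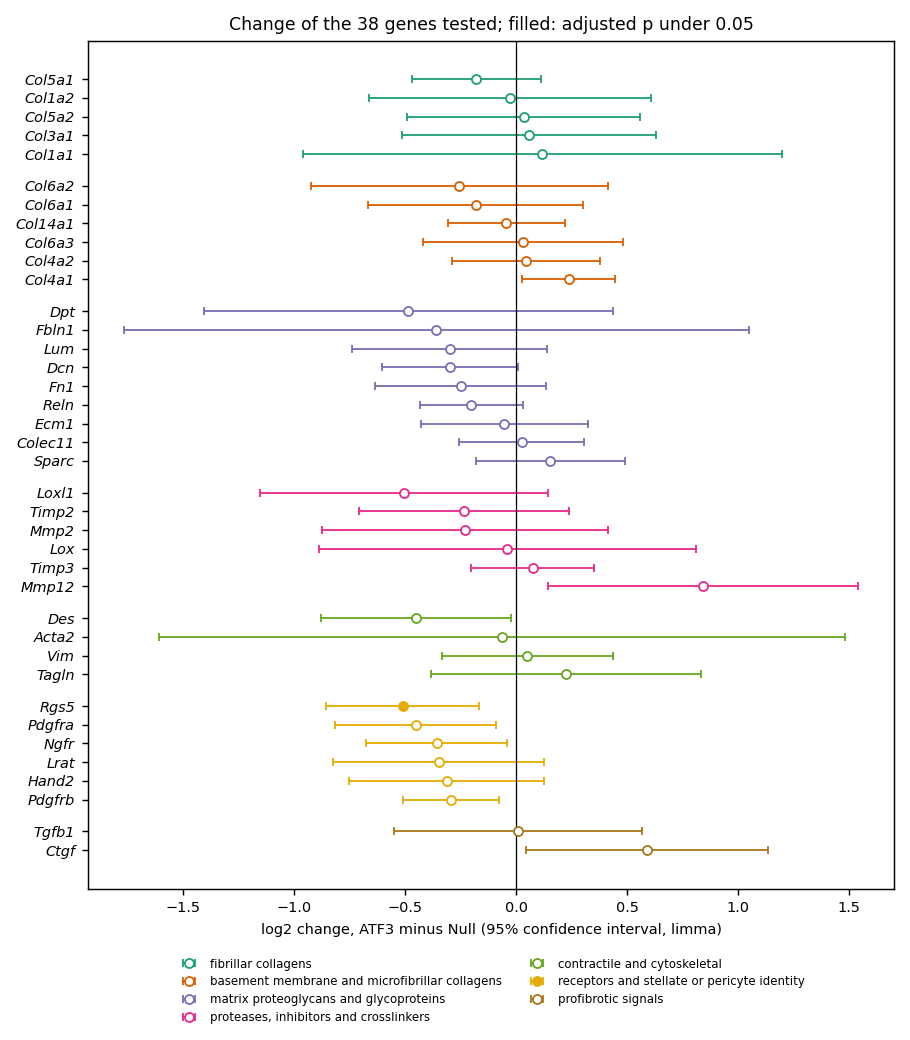
Change of each of the 38 tested genes in ATF3 against Null libraries, on the x axis as log2 change with its 95% confidence interval from limma, one gene per row and coloured by role. Only Rgs5 (filled) passed the adjusted threshold of 0.05; all 6 receptor and stellate identity genes lie left of 0, and Acta2 and Fbln1 have the widest intervals.

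The 6 members grouped here as receptors or genes of stellate or pericyte identity all had estimates below 0, against 49.2% of all genes. Rgs5 fell, and the estimates of the other 5, Pdgfra, Ngfr, Lrat, Hand2 and Pdgfrb, were also below 0 without passing the test. The median of the 6 was -0.35. Of the stellate cell genes placed in other groups here, Colec11 was at 0.02, Ecm1 at -0.05, Reln at -0.20 and Des at -0.45. Rgs5, a regulator of G protein signalling found in pericytes, held 1209.8, 1238, 1608 and 1799.9 (Null 1 to 4) against 809, 1138, 1076 and 1060.1 (ATF3 1 to 4). All 4 ATF3 values lay under the lowest Null value, which was Null 1, and ATF3 1 was the lowest. The group means were 1464 ± 288 for Null against 1021 ± 145 for ATF3 (SD, 4 libraries each; log2 change -0.51, with an SE of 0.16 and an adjusted p of 0.041 by limma). The call was close to the threshold. It was lost without Null 3, Null 4 or any 1 of the 4 ATF3 libraries (adjusted p from 0.0533 to 0.102), and the log2 change then ranged from -0.57 to -0.40. It was also lost with no filter on low values (adjusted p = 0.0507), upper-quartile scaling (0.0668), quantile normalization (0.0671) and eBayes without trend (0.0649). The deposited TPM, whose median over all genes was 0.68, gave 0.39, and TPM rescaled by median of ratios gave -0.48 (adjusted p = 0.0459). Rescaled TPM differ from the normalized counts almost only by a constant per gene, so they are no separate check. Leaving out Null 3 and ATF3 4 together gave -0.48 (adjusted p = 0.172).

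Rgs5 lies on chromosome 1, 169655501 to 169695813, in mm10, on the plus strand. The 250 bases before its annotated start (chr1:169655251-169655500, plus strand, GRCm38.p6, from RefSeq) are shown because it is the only member called.

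Rgs5: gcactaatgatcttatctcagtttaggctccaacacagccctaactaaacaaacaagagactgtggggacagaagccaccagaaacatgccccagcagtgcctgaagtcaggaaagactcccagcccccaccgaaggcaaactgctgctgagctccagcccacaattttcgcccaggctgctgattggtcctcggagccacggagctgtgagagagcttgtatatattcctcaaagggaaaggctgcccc

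The sequence is all in lower case because none of the motifs searched was found in it. Windows of 250 bases before and 50 after a start were searched on both strands for 3 sites of ATF and AP-1 type factors, TGACGTCA (the cAMP response element, CRE), TGACTCA (AP-1) and TGATGCAA (CARE). Windows were found for 27 of the 39 members, 30 windows in all. Col14a1, Col1a1, Col5a2, Ctgf, Dcn, Fn1, Lox, Loxl1, Lum, Mmp2, Pdgfrb and Tagln had none. CRE was in 0 of the 30 windows, against 1.79% of all 32851 windows, and CARE was in 0, against 0.895%. AP-1 was in 3 of the 30 windows, those of Col6a1, Ecm1 and Mmp12, against 5.20% of all windows, and the difference was not tested. The stretches around these 3 AP-1 matches are shown with the match in capitals, because ATF3 is known to bind such sites with Jun partners.

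Col6a1: tgctgatgctgTGACTCActcagctttga

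Ecm1: gcagcagggacTGAGTCAtggcaggaaac

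Mmp12: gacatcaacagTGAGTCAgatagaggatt

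The Col6a1 stretch is chr10:76726117-76726145 on the minus strand and its match begins 90 bases before the RefSeq start. The GENCODE start of Col6a1 lies 124 bases further upstream, at 76726168, so by that annotation the stretch is inside the gene, with all 29 bases in an exon. The Ecm1 stretch is chr3:95739616-95739644 on the minus strand and its match begins 64 bases before the start, which is the same in both annotations. The Mmp12 stretch is chr9:7347319-7347347 on the plus strand. Its match begins 44 bases before the second of 2 RefSeq starts, which are 2977 bases apart. That stretch is inside the GENCODE gene, outside its exons. A match describes letters and does not show binding. The 3 genes had log2 changes of -0.18, -0.05 and 0.84, and none passed the test. A CArG box, the site of serum response factor in smooth muscle genes, was searched after the values were seen and was in 0 of the 30 windows (1.63% of all windows). That does not show that the contractile genes lack such sites. Tagln had no window, and variant sites or sites outside the windows would be missed.

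Pdgfrb, the receptor through which platelet-derived growth factor drives stellate cells, held 437, 396, 447 and 386 (Null 1 to 4) against 334, 355, 315 and 353 (ATF3 1 to 4). The groups did not overlap, the log2 change was -0.29 (95% interval -0.51 to -0.08), and it did not pass (adjusted p = 0.0558). It passed without Null 4 (adjusted p = 0.0281) and with quantile normalization (adjusted p = 0.0434). Pdgfrb also passed at a minimum of 50 in at least 4 libraries (adjusted p = 0.0473) and with array weights. Pdgfra, the alpha receptor, held 465, 324, 414 and 271 (Null 1 to 4) against 248, 256, 262 and 289 (ATF3 1 to 4). Its ATF3 values were close together, and ATF3 4 lay above Null 4, so the groups overlapped (log2 change -0.45, with an SE of 0.16 and an adjusted p of 0.0759). Without Null 4 it passed at -0.59 (adjusted p = 0.00852), and it also passed with array weights. These settings called more of all genes, 28.4% without Null 4 and 33.1% with array weights, against 21.2% in the main fit.

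Ngfr, the low-affinity neurotrophin receptor of stellate cells, held 138, 126, 127 and 104 (Null 1 to 4) against 97.2, 89.1, 112 and 86.6 (ATF3 1 to 4) (log2 change -0.36, with an SE of 0.14 and an adjusted p of 0.105). It too passed without Null 4 (adjusted p = 0.0396) and with array weights, the settings that called 28.4% and 33.1% of all genes. ATF3 3 was the 1 ATF3 library above Null 4. Lrat, which makes the retinyl esters that stellate cells store, held 906, 902, 670.1 and 1033 (Null 1 to 4) against 475, 798, 591 and 958 (ATF3 1 to 4). The groups overlapped, Null 3 was the lowest Null library here, and the change did not pass (log2 change -0.35, with an SE of 0.21 and an adjusted p of 0.285). Hand2, a transcription factor gene of stellate cells, was at -0.31 (adjusted p = 0.303). Pdgfrb lies on chromosome 18, 61045150 to 61085061, Pdgfra on chromosome 5, 75152292 to 75198215, Ngfr on chromosome 11, 95568818 to 95587735 and Lrat on chromosome 3, 82892579 to 82903973, in mm10.

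Reln, Colec11 and Ecm1 encode secreted proteins that stellate cells make in healthy liver, and none of them passed the test. Reln, the reelin gene, held 4791, 4116, 4207 and 5184 (Null 1 to 4) against 4336, 4149, 3696 and 3705 (ATF3 1 to 4) (log2 change -0.20, with an SE of 0.10 and an adjusted p of 0.205). Colec11, a collectin gene, was at 0.02 (95% interval -0.26 to 0.31). Ecm1, extracellular matrix protein 1, was at -0.05 (95% interval -0.43 to 0.32). The intervals of Colec11 and Ecm1 thus lay within a 1.5-fold change on both sides.

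**Figure D2:**
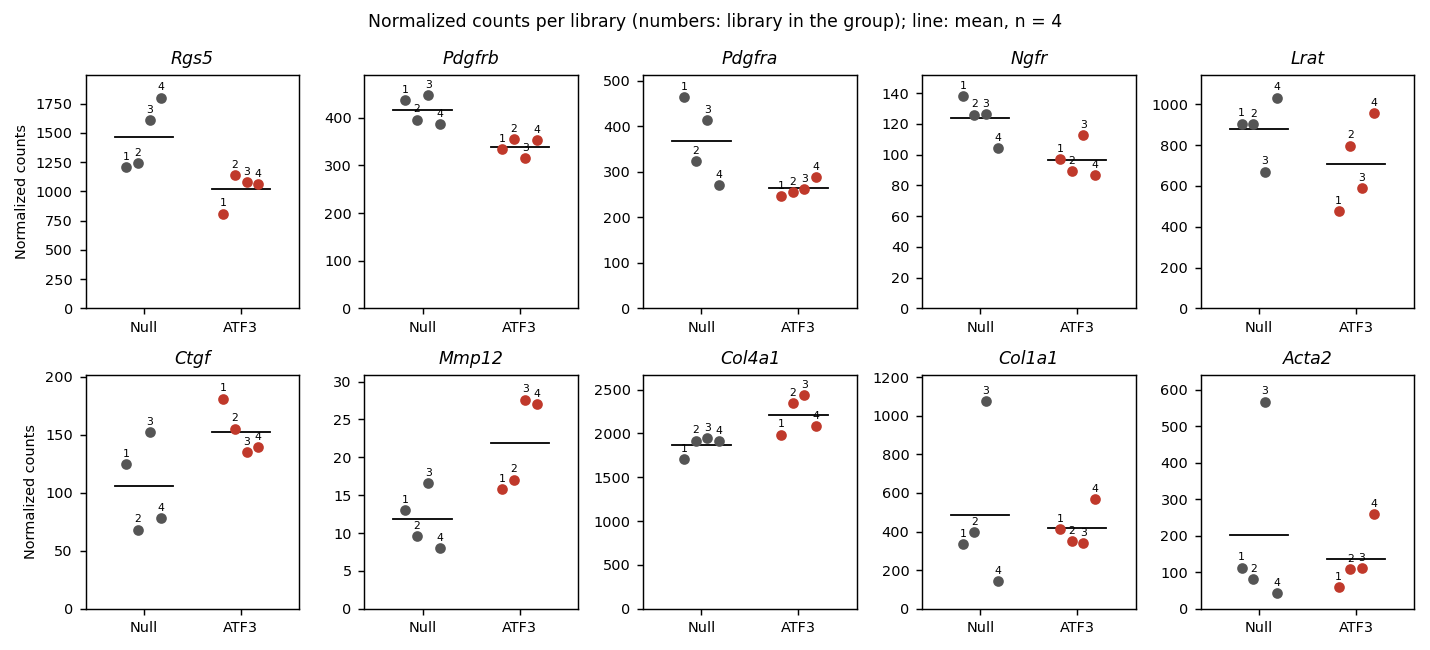
Normalized counts per library (y axis, linear from 0) of 10 members in Null (grey) and ATF3 (red) libraries; each point is 1 library, numbered within its group, and the line is the mean (n = 4). Rgs5 and Pdgfrb are lower in all 4 ATF3 libraries and Col4a1 is higher, while Col1a1 and Acta2 are set apart by Null 3 and, less, ATF3 4.

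Fibrillar collagens, the main product of activated stellate cells, gave no call. By limma 0 of 5 passed in either direction, against 21.2% of all genes. An unadjusted p under 0.05 was found for 0, against 33.9% of all genes. With 5 genes such shares say little. The median was 0.03, and estimates ran from -0.18 (Col5a1) to 0.12 (Col1a1). Col1a1, one of the chains of type I collagen, held 335, 399, 1075 and 141 (Null 1 to 4) against 413, 352, 341 and 569 (ATF3 1 to 4). Null 3 was far above and Null 4 far below all others, and the ATF3 values lay between them. The group means were 488 ± 407 for Null against 419 ± 105 for ATF3 (SD, 4 libraries each; log2 change 0.12, with an SE of 0.49 and an adjusted p of 0.892). The 95% interval, -0.96 to 1.20, reached a 2-fold rise. The change was 0.62 without Null 3 and -0.35 without Null 4, and it passed in neither case (adjusted p = 0.247 and 0.479). Col3a1, type III collagen, held 1460.4, 1492, 3104 and 1309 (Null 1 to 4) against 1482, 1903, 1579.8 and 2347 (ATF3 1 to 4) (log2 change 0.06, with an SE of 0.26 and an adjusted p of 0.897). Null 3 and ATF3 4 were again the highest of their groups. Col1a2, Col5a1 and Col5a2 were at -0.03, -0.18 and 0.03. Col1a1 lies on chromosome 11, 94936224 to 94953042, and Col3a1 on chromosome 1, 45311538 to 45349706.

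Of the collagens of basement membrane and of microfibrils, 0 of 6 passed, and 1, Col4a1, had an unadjusted p under 0.05. Among all genes the shares were 21.2% and 33.9%. Col4a1, a chain of the type IV collagen of basement membranes, held 1710.2, 1919, 1943 and 1916 (Null 1 to 4) against 1986, 2342, 2434 and 2083 (ATF3 1 to 4). Every ATF3 value lay above every Null value, by a small step, and Null 1 was the lowest. The log2 change was 0.24 (SE 0.09, adjusted p = 0.105). Col4a2, the partner chain, starts within the same stretch of chromosome 8 on the other strand, with annotated starts at 11312826 (Col4a1) and 11312805 (Col4a2). It held 1395, 1533, 1435 and 967 (Null 1 to 4) against 1379.9, 1488, 1433 and 1144 (ATF3 1 to 4), with overlapping groups and a log2 change of 0.05 (95% interval -0.29 to 0.38). The difference between the 2 changes was not tested. Col6a1, Col6a2 and Col6a3, the chains of type VI collagen, were at -0.18, -0.25 and 0.03, and Col14a1, a fibril-associated collagen gene, was at -0.04 (95% interval -0.31 to 0.22).

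Among proteoglycans and glycoproteins of the matrix, 0 of 9 passed, against 21.2% of all genes. An unadjusted p under 0.05 was found for 0, against 33.9% of all genes. The median was -0.25. Fn1, fibronectin, which hepatocytes secrete into plasma and stellate cells into the matrix, was the member with the most transcripts per length, first of the 39 in all 8 libraries by TPM. Its normalized counts were 64729, 70469, 79928 and 54852 (Null 1 to 4) against 76103, 53643, 51848 and 47286 (ATF3 1 to 4) (log2 change -0.25, with an SE of 0.17 and an adjusted p of 0.349). ATF3 1 lay with the higher Null libraries and the other ATF3 libraries lay under all Null ones. Fn1 passed with array weights, which called 33.1% of all genes. Dcn, decorin, a small proteoglycan that binds collagen, had rank 2 by TPM in all 8 libraries, and Ecm1 had rank 3. Dcn held 4213, 3348, 4259 and 5136 (Null 1 to 4) against 2939, 3781, 3231 and 3754 (ATF3 1 to 4) (log2 change -0.30, with an SE of 0.14 and an adjusted p of 0.158). Lum, lumican, a related proteoglycan, was at -0.30, and Sparc, a collagen-binding glycoprotein, at 0.15. Dpt, dermatopontin, and Fbln1, fibulin 1, followed Null 3 most closely. Dpt held 123, 110.4, 375 and 107 (Null 1 to 4) against 80.3, 119, 78.5 and 188 (ATF3 1 to 4), and Fbln1 held 38.0, 53.4, 261 and 25.2 (Null 1 to 4) against 33.4, 37.6, 40.9 and 95.9 (ATF3 1 to 4). Both were also highest in ATF3 4 within their group, and neither passed (log2 changes -0.49 and -0.36, adjusted p = 0.449 and 0.736). The Fbln1 change was 0.34 without Null 3.

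Of the matrix enzymes and their inhibitors, 0 of 6 tested passed by limma, and 1, Mmp12, had an unadjusted p under 0.05. Among all genes the shares were 21.2% and 33.9%. Mmp12, macrophage elastase, had the highest estimate at a pseudocount of 1 and also some of the lowest values. At a pseudocount of 10 its estimate was 0.54, like that of Ctgf, and with rescaled TPM it was 0.14, under Ctgf at 0.38. The deposited TPM of Mmp12 was only 0.024 to 0.53, so the added 1 shrinks its change on the TPM scale. The 0.14 is thus not a different measured change. It held 13.0, 9.60, 16.6 and 7.99 (Null 1 to 4) against 15.8, 17.1, 27.6 and 27.0 (ATF3 1 to 4). ATF3 3 and ATF3 4 were the highest and ATF3 1 lay just under Null 3 (log2 change 0.84, with an SE of 0.31 and an adjusted p of 0.0837). The 95% interval was 0.15 to 1.54, and Mmp12 passed with array weights, which called 33.1% of all genes. Markers of Kupffer cells and macrophages, its usual source, did not pass for any of 21 tested genes (median 0.15), against 21.2% of all genes. An unadjusted p under 0.05 was found for 0 of them, against 33.9%. Their sums were 18399 to 26031 in Null and 19688 to 26734 in ATF3. Mmp2, the gelatinase of stellate cells, was at -0.23, and the inhibitor genes Timp2 and Timp3 were at -0.23 and 0.08. Timp1, which rises in most fibrotic livers, was barely detected, with 2.27, 2.96, 3.24 and 1.64 (Null 1 to 4) against 1.85, 4.23, 2.22 and 6.21 (ATF3 1 to 4). It was under 10 in every library and was left out of the main fit. The fit with no filter on low values held all 39 members and called none. Lox and Loxl1, which crosslink collagen, were at -0.04 and -0.50, and Lox was at 28.6 or under in every library.

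Contractile and cytoskeletal genes, which mark the myofibroblast state, gave 0 of 4 past the threshold by limma and 1, Des, at an unadjusted p under 0.05. Among all genes the shares were 21.2% and 33.9%. Acta2, smooth muscle alpha-actin, held 113, 80.4, 567 and 43.7 (Null 1 to 4) against 60.1, 109.6, 111 and 259 (ATF3 1 to 4). Null 3 held the highest value and Null 4 the lowest, so that the Null group spanned the ATF3 group. The group means were 201 ± 246 for Null against 135 ± 85.9 for ATF3 (SD, 4 libraries each; log2 change -0.06, with an SE of 0.70 and an adjusted p of 0.961), and the 95% interval, -1.61 to 1.48, allowed a 2-fold change in either direction. Without Null 3 the estimate was 0.67 (adjusted p = 0.374), and without ATF3 4 it was -0.44. Acta2 lies on chromosome 19, 34241090 to 34255590. Des, desmin, which rodent stellate cells make in the quiescent state too, held 165, 109.8, 149 and 127 (Null 1 to 4) against 98.2, 81.0, 88.4 and 137 (ATF3 1 to 4) (log2 change -0.45, with an SE of 0.19 and an adjusted p of 0.129). ATF3 4 lay within the Null range, and the other three ATF3 libraries lay under it. Tagln, transgelin, was at 0.23 and Vim, vimentin, at 0.05 (95% interval -0.34 to 0.43).

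**Figure D3:**
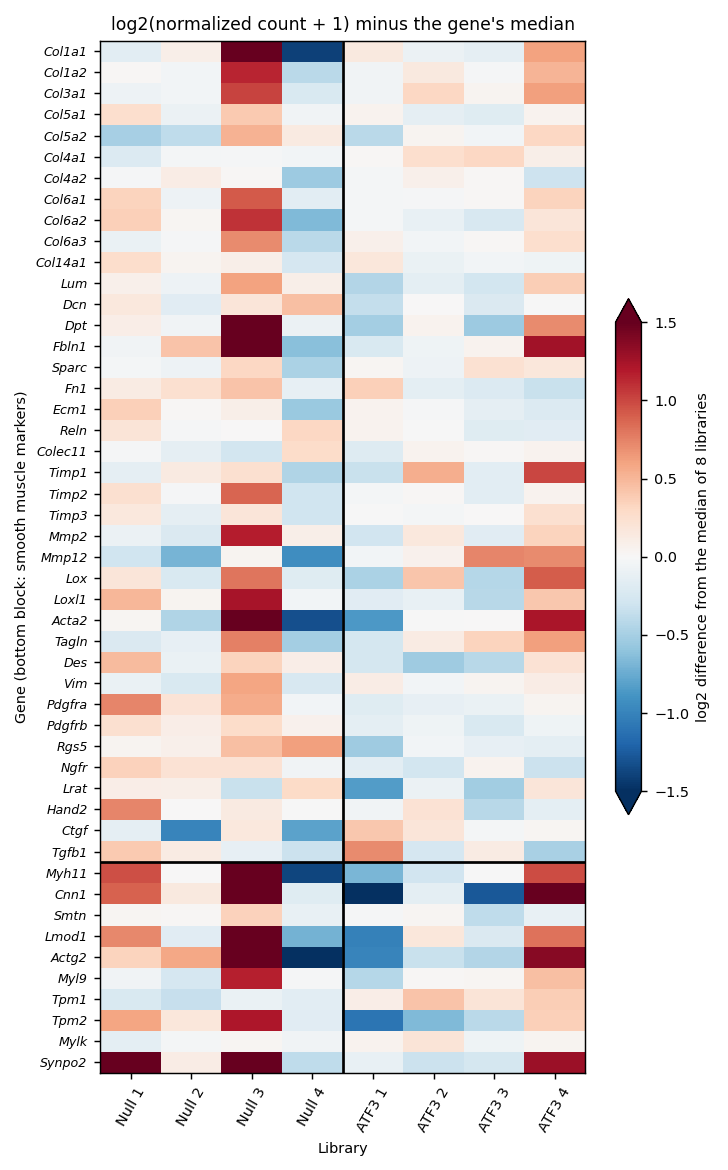
Each of the 39 members (rows, in order of role) and 10 smooth muscle markers (bottom block) in each library (columns), coloured by log2(normalized count + 1) minus the gene's median over 8 libraries. Null 3 is high for most fibrillar collagen, contractile and smooth muscle genes, Null 4 is low for many of them, and ATF3 4 is the highest ATF3 library for 22 of the 39.

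Of the profibrotic signals, 0 of 2 passed, against 21.2% of all genes. Ctgf, connective tissue growth factor (Ccn2 in current annotation), held 125, 68.2, 153 and 78.1 (Null 1 to 4) against 181, 155, 135 and 139 (ATF3 1 to 4). Null 3 lay within the ATF3 range, Null 1 just under it, and Null 2 and Null 4 were the lowest (log2 change 0.59, with an SE of 0.25 and an adjusted p of 0.121). Without Null 3 it passed, at 0.79 (adjusted p = 0.0362). Tgfb1, the main profibrotic cytokine of liver, held 224, 186, 157 and 137 (Null 1 to 4) against 281, 144, 187 and 122 (ATF3 1 to 4). Its groups overlapped fully, with ATF3 1 the highest and ATF3 4 the lowest of all 8 (log2 change 0.01, with an SE of 0.25 and an adjusted p of 0.984, 95% interval -0.55 to 0.57). Ctgf lies on chromosome 10, 24595442 to 24598683, and Tgfb1 on chromosome 7, 25687002 to 25705077.

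Other genes of the matrix, of its signalling and of stellate cells were read from 8 lists of 231 genes, of which 189 were tested. Of these, 10 rose and 20 fell, or 15.9%, against 21.2% of all genes. By list, the share called ran from 3.33% for matricellular, proteoglycan and elastic fibre genes to 29.0% for TGF-beta and PDGF signalling. With 6 lists of markers of other cell types there were 272 tested genes, of which 16 rose and 27 fell, or 15.8%. Without ATF3 3, 9 rose, and without Null 4, 48 fell. Among 20 other collagens tested, 1 rose and 2 fell. Col27a1, a fibrillar collagen gene of cartilage, rose by 2.94, from 985, 681, 557 and 732 in Null 1 to 4 to 5956, 5396, 5643 and 5281 in ATF3 1 to 4. That step was far larger than the spread within either group. Col5a3, another chain of type V collagen, fell by 1.64, while its partner genes Col5a1 and Col5a2 did not pass. Col12a1 fell by 0.66, a call lost without Null 3, ATF3 2 or ATF3 3 (adjusted p from 0.0504 to 0.0634). Of 15 laminin and basement membrane genes, 1 rose and 1 fell: Nid1, nidogen 1, which links laminin to type IV collagen, rose by 1.10, and the laminin chain gene Lama3 fell by 1.24.

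Of 24 collagen processing genes, 2 rose and 1 fell. P4hb, a subunit of prolyl 4-hydroxylase that also acts as a protein disulfide isomerase, rose by 0.56, Colgalt1 rose by 0.35, and the lysyl hydroxylase gene Plod3 fell by 0.30. The P4hb call was lost without ATF3 3 or ATF3 4 (adjusted p from 0.0572 to 0.061), that of Colgalt1 without Null 1, ATF3 2, ATF3 3 or ATF3 4 (adjusted p from 0.0702 to 0.0993), and that of Plod3 without any 1 library but Null 4 (adjusted p from 0.0618 to 0.124). Of 22 matrix proteases and inhibitors, 2 rose and 2 fell. Adamts1, a secreted metalloproteinase gene, rose by 0.88. Serpine2 and the antiplasmin gene Serpinf2 fell by 2.16 and 0.56. Of 30 matricellular, proteoglycan and elastic fibre genes, 0 rose and 1 fell by limma, and at an unadjusted p under 0.05 there were 5, all lower. The 1 was Vtn, vitronectin, which hepatocytes secrete, and it fell by 0.65. Of 17 integrins and collagen receptors, Itgb5 rose by 0.31 and Itga8, an integrin gene of stellate cells, fell by 0.42. The Itgb5 call was lost without any 1 library but Null 4 and ATF3 1 (adjusted p from 0.0623 to 0.111), and that of Itga8 without Null 3, ATF3 2 or ATF3 3 (adjusted p from 0.0563 to 0.0584).

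Among 31 genes of TGF-beta and PDGF signalling, 2 rose and 7 fell, or 29.0%, against 21.2% of all genes. The median was -0.24. The receptors went different ways. Tgfbr2, the type II receptor, rose by 0.73, whereas Tgfbr1, the type I receptor, fell by 0.36 and Tgfbr3, the coreceptor betaglycan, fell by 0.63. Inhbe, an inhibin chain gene of hepatocytes, fell by 1.49.

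Of 30 other stellate cell genes, 1 rose and 5 fell, or 20%, against 21.2% of all genes, and the median was -0.26. Cxcl12, a chemokine gene, fell by 0.84, and Abcc9, the sulfonylurea receptor of pericytes, fell by 0.50. Nt5e, the ecto-5'-nucleotidase gene, rose by 0.97. Which cells these transcripts came from was not measured, and hepatocyte markers also changed. Of 15 tested, 3 rose and 5 fell, or 53.3%, with Ttr at 1.26, Serpina1a at -2.89, Cps1 at -0.58 and Pck1 at -0.61. The Cps1 call was lost without ATF3 4 (adjusted p = 0.0536) and without the filter on low values (adjusted p = 0.0634), and with quantile normalization its change was -0.027 (adjusted p = 0.897). The sum of the hepatocyte markers was 2.86 M to 4.20 M in Null and 3.45 M to 4.16 M in ATF3.

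Markers of other liver cells differed in how many were called, against 21.2% of all genes. Sinusoidal endothelial markers gave 0 of 19 by limma (2 at an unadjusted p under 0.05, both lower), with a median of -0.03 and sums of 24259.8 to 29062 in Null and 24439 to 25539.6 in ATF3. Of the portal fibroblast and mesothelial markers 2 of 9 (22.2%) rose, Gas6 by 1.63 and Gas1 by 0.89, but the median was -0.36, so the sign of the calls and of the median differed. Of 10 smooth muscle markers 1 (10%) rose, the tropomyosin gene Tpm1 by 0.48, and the median was -0.33. Of 10 cholangiocyte markers 2 (20%) fell, among them Sox9 by 1.89, with overlapping groups. The Sox9 call was lost without any 1 library but Null 4 and ATF3 1 (adjusted p from 0.0534 to 0.0683). The sums over 12 cholangiocyte markers were 1707 to 2441 in Null and 1529 to 2055 in ATF3.

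**Figure D4:**
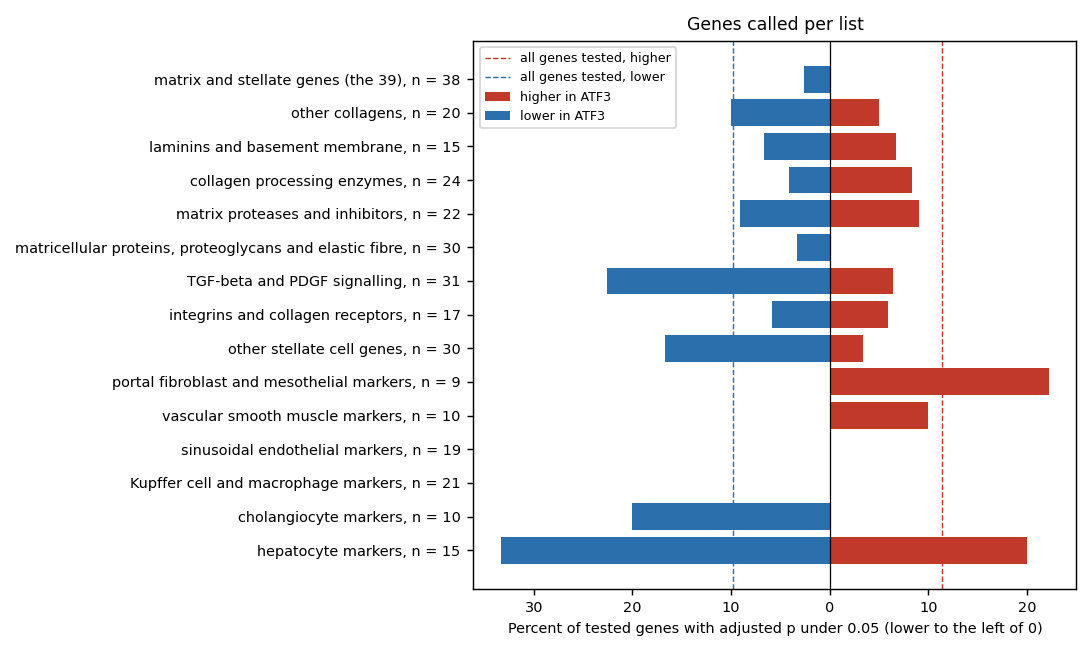
Share of the tested genes of each list that passed an adjusted p of 0.05 (x axis, percent), higher in ATF3 to the right and lower to the left, with dashed lines at the shares of all genes tested (11.4% and 9.82%). The 38 matrix and stellate genes show 1 lower and 0 higher genes, and the lists of endothelial and macrophage markers show none.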

How the data were processed

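Liver RNA of 4 Null and 4 ATF3 libraries was read from 2 tables for the whole series. Total RNA was made into stranded libraries, per the labels' protocols; Bowtie2 and mm10 are named in the submitters' processing notes. Which quantifier, annotation or filter was used was not stated in those sources. One deposited table is a signal from the authors: read counts that were scaled per library, with DESeq by the table's name. Its values are not whole: 12.7% to 26.6% of low values were within 0.01 of a whole multiple of the most frequent low value. No whole reads could thus be derived, and the depth is unknown. As a second table the authors deposited TPM; 26 date-like names were left out there. The log2 ratio of both tables, less a constant per gene and library, had an SD of 0.00312 over 12353 genes. Mir6236 held 89.4% of the TPM in Null 1 and 0.308% to 37.0% in the other libraries, so TPM served for ranks within a library.

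Tests were limited to genes that reached 10 in at least 4 libraries and used limma 3.58.1 (R 4.3.3) on log2(value + 1), eBayes with trend, two-sided, Benjamini-Hochberg adjustment over all 13301 genes, threshold 0.05. Changes are ATF3 minus Null on that scale, which understates low genes; intervals are 95% confidence intervals from limma. A simulation of this comparison with 13301 genes recovered 44% of 1.5-fold, 76% of 2-fold and 100% of 4-fold changes, with 13 false calls among 173. It changed only a small share of genes, all above a level that Mmp12 and Lox did not reach, with independent noise per gene. In the data 21.2% of genes were called and many members were highest in the same library. The rates are therefore not the power for the members. Members, lists and rules were chosen with earlier results of these data known. Values per library are given for called members and a fixed set; those of Pdgfra, Ngfr, Mmp12, Col4a1, Col4a2, Reln, Dcn, Dpt, Fbln1 and genes outside the list were picked after seeing them. From each list, up to 4 called genes with the smallest p are named, except some that are not reported here. Positions are from GENCODE vM21 (GRCm38), matched by symbol. Tables and plots were made with matplotlib 3.10.9, pandas 2.3.3 and numpy 2.4.6 under Python 3.11.15. Alternatives covered pseudocounts, filters, scaling, TPM, weights, eBayes settings and leaving out each library.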

Additional observations from a re-analysis of the deposited data

Results flagged for a closer look

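In groups of 4 libraries, 1 library was set apart from the others by Dixon's criterion for 12 of 78 sets of values, 39 genes in 2 groups. The criterion is the gap to the next library as a share of the group's range. Chance flags about 1 in 20 where values are normally distributed. Normalized counts were used here without logs, where high values stand apart more easily, so 1 in 20 may be too low. The sets share libraries and are not independent. Null 3 was the high library for 6 genes: Col3a1 (gap 0.898 of the range), Dpt (0.943), Fbln1 (0.880), Mmp2 (0.854), Acta2 (0.868) and Vim (0.868). ATF3 4 was the high library for Col6a1 (0.870), Fbln1 (0.880) and Timp3 (0.894). Null 1 was low for Col4a1 (0.885) and high for Hand2 (0.848), and ATF3 1 was low for Colec11 (0.854). All 10 tested smooth muscle markers were also highest in Null 3 among the Null libraries; the part of such tissue in these values was not tested.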

How the results depend on the processing

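The number of members called lower was 1 and became 0 without the filter, with upper-quartile scaling, with TPM, without the eBayes trend and with Null 3 and ATF3 4 both left out (chosen after seeing the data); it was 2 at a minimum of 50 and 5 with array weights, where 1 was called higher. With quantile normalization it stayed 1, but Pdgfrb was called in place of Rgs5. Leaving out 1 library gave 0 to 3 lower and 0 to 1 higher members. Over all genes, 440 rose and 76 fell with TPM (1533 and 1300 once rescaled by median of ratios), 2271 and 2130 with array weights, and 775 and 659 with both libraries left out; leaving out 1 gave 1040 to 1965 higher (the lowest without ATF3 3) and 851 to 1812 lower. Of the genes on the 14 lists, 16 higher and 27 lower became 4 and 0 with TPM (18 and 26 once rescaled), 21 and 52 with array weights, 9 and 9 with both left out, and 9 to 21 and 18 to 48 leaving out 1 (48 without Null 4, 9 without ATF3 3). Rescaling TPM thus brought the counts near those of the normalized counts. For the other settings the cause was not tested. Leaving out a library changed both their number and which were used, and without Null 4 more genes were called (1965 higher, 1812 lower). All 29 genes named from the lists kept sign and call with rescaled TPM. Apart from constants per gene and library both tables hold nearly the same values, so that is no separate check of the calls. Plod3 was lost without the filter, with upper-quartile scaling, with quantile normalization and without the eBayes trend, Colgalt1 and Itgb5 without that trend, and 15 of the 29 with both libraries left out.

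TPM moved the median of all genes to 0.68 and that of the members to 0.49, with 0 members under 0 and 24 under the median of all genes, as many as in the normalized counts. Signs turned with TPM for Col1a2 0.68, Col5a1 0.41, Col6a1 0.49, Col6a2 0.35, Col14a1 0.84, Lum 0.48, Dcn 0.69, Dpt 0.23, Fbln1 0.013, Fn1 0.75, Ecm1 0.92, Reln 0.69, Timp2 0.49, Mmp2 0.26, Lox 0.11, Loxl1 0.076, Acta2 0.41, Des 0.23, Pdgfra 0.26, Pdgfrb 0.38, Rgs5 0.39, Ngfr 0.24, Lrat 0.48, Hand2 0.40, Plod3 0.51, Serpinf2 0.45, Vtn 0.36, Tgfbr1 0.54, Tgfbr3 0.21, Itga8 0.29, Cxcl12 0.16, Abcc9 0.35, Cps1 0.42 and Pck1 0.39. Rescaled TPM turned Lox 0.00053, upper-quartile scaling Col1a2 0.0055, quantile normalization Col5a2 -0.012, Fn1 0.25 and Tgfb1 -0.037, array weights Col1a1 -0.26, Col3a1 -0.0074, Col4a2 -0.13, Col6a3 -0.091, Lox 0.054, Vim -0.016 and Tgfb1 -0.17, and both libraries left out Col1a2 0.17, Fbln1 0.00039, Ecm1 0.028, Colec11 -0.076 and Acta2 0.29. Leaving out 1 library turned Col3a1 (-0.073 to 0.34), Col5a2 (-0.11 to 0.23), Col6a3 (-0.12 to 0.25), Col14a1 (-0.14 to 0.033), Ecm1 (-0.23 to 0.074), Colec11 (-0.054 to 0.13), Vim (-0.033 to 0.25), Col1a2 (-0.22 to 0.29), Col6a1 (-0.32 to 0.040), Col6a2 (-0.54 to 0.038), Fbln1 (-0.77 to 0.34), Mmp2 (-0.38 to 0.082), Lox (-0.31 to 0.18), Acta2 (-0.55 to 0.67), Tgfb1 (-0.22 to 0.18), Col1a1 (-0.35 to 0.62), Col4a2 (-0.10 to 0.13) and Timp3 (-0.017 to 0.14). Of the members so turned only Rgs5 had been called, and none was called with the turned sign; the turned genes outside the 39 had been called. No paired analysis was possible because the labels give no replicate numbers shared by the groups. Low values limit what can be read from Timp1, Lox and Mmp12, all under 30 normalized counts in every library.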
